A study of Mus musculus with 11 samples.

Results

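The YAP-TAZ pathway was followed here in sorted retinal vascular endothelial cells through 10 genes, taken from the 55359 genes of the count tables. The genes were listed by name: the coactivators Yap1 and Wwtr1 (the gene of TAZ), the DNA-binding partners Tead1 and Tead4, the kinase Lats2, the angiomotins Amot, Amotl1 and Amotl2, and the target genes Ccn1 and Ccn2. All 10 were found by gene symbol, all had reads in each of the 11 mice, and all 10 passed the filter on low counts.

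YAP and TAZ are coactivators without a DNA-binding domain of their own, and they act on transcription mainly through the TEAD factors. The Hippo kinases, with LATS kinases as the last step, phosphorylate YAP and TAZ and hold them outside the nucleus, while stretch, a stiff matrix and an organized actin cytoskeleton favor their entry. In endothelial cells YAP and TAZ are known for their part in sprouting and vessel remodeling, and the secreted matricellular proteins encoded by Ccn1 and Ccn2 are among their best known targets. The pathway is regulated largely through phosphorylation and location of the proteins, which transcript levels do not show.

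The cells came from mice labeled C57BL/6 (C57BL/6J in the methods) in the model of oxygen-induced retinopathy (OIR), in which pups are kept in high oxygen and pathological vessels grow after their return to room air. Oncostatin M (OSM), a cytokine of the IL-6 family, was injected into the vitreous at P12 (0.5 µL of 100 ng/µL), and controls received 0.5 µL PBS. Vascular endothelial cells were sorted at P17 as CD31+ and CD45- cells, and both retinas of a mouse made up 1 sample. OSM was given to 5 mice (mice 1, 2, 5, 6 and 9) and PBS to 6 mice (mice 3, 4, 7, 8, 10 and 11). The sample labels give 1 treatment per mouse. According to the methods, however, the other eye served for PBS control injections, so a sample labeled OSM may contain cells from a PBS-injected eye. Litters 1 and 2 each held 2 OSM and 2 PBS mice, litter 3 held 1 OSM and 2 PBS mice, and every litter was used in a separate OIR run, so litter and run cannot be told apart.

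Reads counted on genes numbered 26697990 to 56033479 per mouse (median 32500202). All 10 endothelial markers that were checked, Pecam1 and Cdh5 among them, were found in every mouse, with a summed level of 11900 to 16700 CPM (counts relative to library size, scaled with TMM factors). The summed level of 8 rod genes was 191 to 5220 CPM and that of 10 mural cell genes was 310 to 1740 CPM, so the sorted cells were not free of transcripts of other cell types. The leukocyte markers stayed at 0.23 to 14.1 CPM in sum. In bulk samples of this kind, fewer cells of a type and less RNA per cell cannot be told apart.

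The targets Ccn1 and Ccn2 and the coactivator Wwtr1 were the most abundant of the 10 transcripts. To compare genes, counts were divided by the length of all exons of a gene and scaled to the same total in each mouse (TPM). Ccn1 reached 1020 ± 537 TPM (SD, n = 11), Ccn2 520 ± 348 TPM and Wwtr1 217 ± 30.7 TPM, above 99.4%, 98.5% and 95.6% of the 16962 genes ranked. Amotl2 (59.2 ± 24.9 TPM), Amotl1 (26.7 ± 9.22 TPM), Yap1 (15.7 ± 3.81 TPM) and Lats2 (12.7 ± 4.1 TPM) formed the middle of the order. Tead4 (7.48 ± 2.79 TPM), Tead1 (6.17 ± 2.99 TPM) and Amot (2.96 ± 2.25 TPM) stood at its end.

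Of the 9 pairs of neighbors in this order, 7 differed in an exact sign-flip permutation test of the ratios within mice (two-sided, adjusted p of 0.0022 to 0.0427, with 0.000977 as the smallest unadjusted p that 11 mice allow). Yap1 and Lats2 did not differ beyond the spread between mice (mean log2 ratio of TPM 0.35 ± 0.62 SD, exact adjusted p = 0.0956), although the test was passed when mouse 2 was left out (exact adjusted p = 0.0176). Tead4 and Tead1 did not differ either (0.39 ± 1.3 SD, exact adjusted p = 0.377). The step from Tead1 to Amot passed with an exact adjusted p of 0.0427, but in 8 of the 11 settings that left out 1 mouse it did not (0.0176 to 0.0854 over all 11). The length assigned to a gene mattered for some neighbors. With the longest transcript in place of all exons, Wwtr1 reached 390 TPM and Ccn2 431 TPM, and neither these neighbors nor Amotl1 and Yap1 were told apart (exact adjusted p = 0.788 for both).

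**Figure D1:**
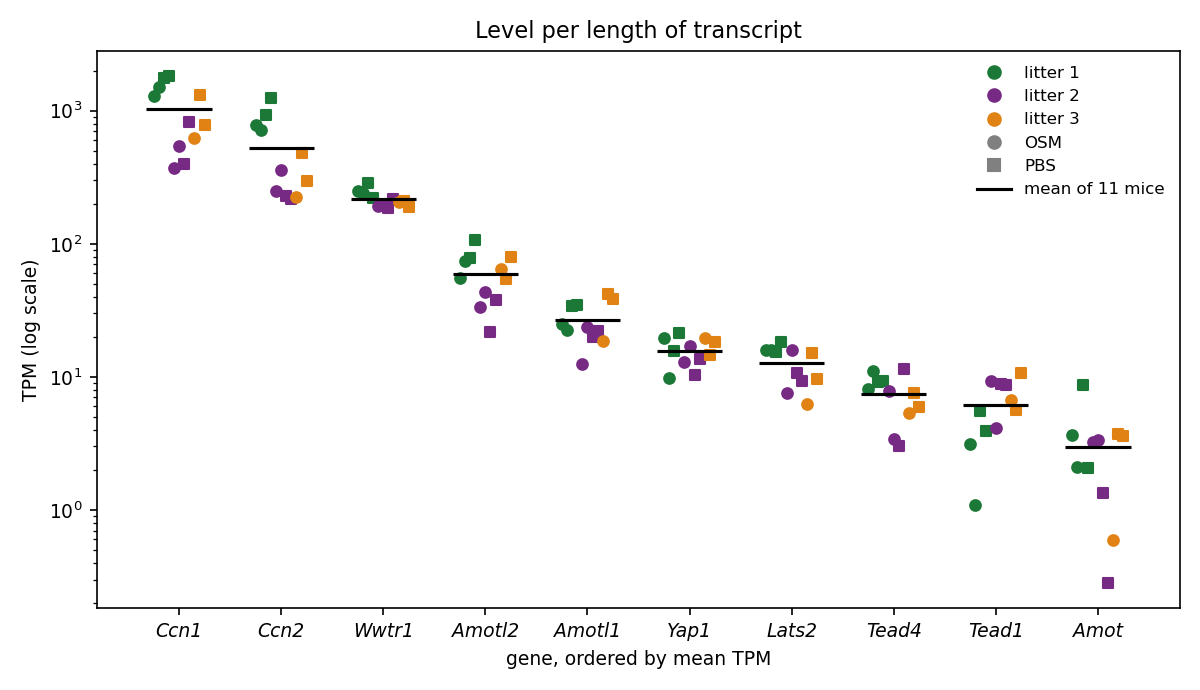
Level of each of the 10 genes per length of transcript (TPM, log scale) in the 11 mice, ordered by the mean (black bar). Circles are OSM mice, squares are PBS mice, and colors mark the litter. Wwtr1 keeps within 187 to 288 TPM, whereas the Ccn1 values run from 368 to 1820 TPM, with the green points of litter 1 at the top for Ccn1 and Ccn2, except for a litter 3 mouse among them for Ccn1.

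Both coactivators were transcribed, with far more Wwtr1 than Yap1. Wwtr1 (ENSMUSG00000027803, chr3:57363067-57483331, minus strand of GRCm39) made up 93.2% ± 1.64 (SD, n = 11) of the summed TPM of the pair and exceeded Yap1 (ENSMUSG00000053110, chr9:7932000-8004661, minus strand) in 11 of 11 mice. The ratio of Wwtr1 to Yap1 in TPM ranged from 10.3 to 24.3 between mice, and its mean was 14.6 ± 4.3 (SD) with all exons and 20.7 ± 6.09 with the longest transcript as the length. Wwtr1 was also the steadiest of the 10 genes. Its coefficient of variation over the mice was 12.4% in CPM, against 23.4% for Yap1 and a median of 45.1% over the 17050 genes tested. Low counts raise this measure, and Yap1 had 12672 reads in all mice, against 216715 for Wwtr1. The comparison therefore does not set Wwtr1 apart from genes of a like level.

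Among the TEAD factors, the transcript that led was one outside the 10 genes. Tead2 made up 68.9% ± 6.37 (SD, n = 11) of the summed TPM of the family, Tead4 17% ± 6.12 and Tead1 13.8% ± 6.05. Tead2 exceeded the sum of Tead1 and Tead4 in 11 of 11 mice, by a mean ratio of TPM of 2.38 ± 0.72 (SD). Tead3 was close to absent, with 77 reads in 5 mice. Tead1 (ENSMUSG00000055320, chr7:112278522-112506014, plus strand) ranged from 3.22 CPM in mouse 2 to 32.0 CPM in mouse 11, a spread of 9.94-fold. Tead4 (ENSMUSG00000030353, chr6:128201251-128277786, minus strand) ranged from 4.35 to 15.8 CPM, and the ratio of Tead4 to Tead1 was above 1 in 6 of 11 mice. Vgll4, which competes with YAP and TAZ for TEAD factors, reached 99.7 TPM, whereas no read fell on Vgll1, Vgll2 or Vgll3 in any mouse, which allows up to 0.112 CPM in the smallest library (3 counts, counting error only).

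The LATS kinases and the angiomotins, which bind YAP and TAZ in the cytoplasm and at junctions, are the members that restrain the coactivators. Lats2 (ENSMUSG00000021959, chr14:57926960-57995845, minus strand) exceeded Lats1 in 11 of 11 mice and held 75.0% ± 9.86 (SD, n = 11) of the summed TPM of the pair. Amotl2 (ENSMUSG00000032531, chr9:102593836-102610617, plus strand) held 65.5% ± 8.35 of the summed TPM of the angiomotins and Amotl1 (ENSMUSG00000013076, chr9:14453262-14556352, minus strand) 31.1% ± 8.01. Amotl2 was above Amotl1 in every mouse. Amot (ENSMUSG00000041688, chrX:144229421-144288177, minus strand), the founding gene of the family, held 3.39% ± 2.2. Its counts were low, 19 to 422 reads per mouse, and its coefficient of variation of 75.1% was the highest of the 10 genes.

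The secreted CCN proteins were represented almost entirely by the pair of targets. Ccn1 (ENSMUSG00000028195, chr3:145352720-145355738, minus strand) contributed 66.7% ± 6.57 (SD, n = 11) of the summed TPM of the CCN family and Ccn2 (ENSMUSG00000019997, chr10:24471333-24474900, plus strand) 32.8% ± 6.73. Ccn1 was above Ccn2 in 11 of 11 mice, with a mean ratio of TPM of 2.17 ± 0.738 (SD). Ccn3, Ccn4 and Ccn6 stayed at a mean of 2.32, 3.23 and 0.171 TPM, and Ccn5 had 0 reads. Some exon bases are shared with genes on the opposite strand, 468 bases of Ccn1 with Gm17501 and 1164 bases of Ccn2 with Gm15270. The methods state standard settings for the counting. These do not use strand and leave out reads that overlap exons of 2 genes, so reads in the shared bases may be missing from both counts. The neighbors had 1597 and 539 reads in all mice, against 169643 for Ccn1 and 132403 for Ccn2, but these numbers do not measure such a loss. The lengths behind TPM, 2032 bases for Ccn1 and 3187 for Ccn2, include the shared bases, so the TPM of both may be too low. Lats2 likewise shares 2955 of its 10486 exon bases with Gm49361 on the same strand, which had 0 reads.

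TEAD factors bind the letters GGAATG, and the bases in front of 9 of the 10 genes were searched for them on both strands. In the 250 bases before the start of the canonical transcript (GENCODE vM39), 5 of these 9 genes had at least 1 match, against 11.6% of 13341 promoters of tested protein-coding genes. Amotl2 had 2 matches, and Ccn1, Yap1, Wwtr1 and Tead1 had 1 each. Tead4, Lats2, Amot and Amotl1 had none. A match of letters is not evidence of binding. The AP-1 letters TGANTCA, found in 4.5% of the promoters, occurred in none of the 9, and the STAT letters TTCNNNGAA, found in 6.46%, occurred only in Amot. No TEAD match overlapped another. The promoters of Ccn1 and Amotl2 are shown because these genes had the lowest p values between litters among the 9, as described further on. They are bases of GRCm39 at chr3:145355739-145355988 (minus strand) and chr9:102594617-102594866 (plus strand), written 5′ to 3′ up to the base before the start, with TEAD matches in capitals. The match of Ccn1 lies on the reverse strand and reads CATTCC.
Ccn1: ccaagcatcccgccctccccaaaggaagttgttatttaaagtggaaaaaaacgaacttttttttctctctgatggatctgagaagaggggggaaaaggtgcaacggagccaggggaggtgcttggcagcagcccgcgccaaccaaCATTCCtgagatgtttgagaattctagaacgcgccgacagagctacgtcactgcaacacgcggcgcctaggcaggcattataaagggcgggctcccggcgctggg
Amotl2: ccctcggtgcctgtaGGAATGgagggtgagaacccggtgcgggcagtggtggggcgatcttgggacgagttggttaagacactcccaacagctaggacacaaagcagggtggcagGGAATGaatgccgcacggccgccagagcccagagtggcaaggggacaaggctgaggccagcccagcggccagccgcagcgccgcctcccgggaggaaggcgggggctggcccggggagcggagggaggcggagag
The match of Ccn1 begins 105 bases before the start, and those of Amotl2 begin 235 and 135 bases before it.

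The comparison of OSM with PBS asked whether the pathway differed 5 days after the injection. None of the 10 genes passed the test (edgeR's quasi-likelihood test with litter as a term, adjusted p of 0.955 to 1), and neither did any other of the 17050 genes tested (0% called, lowest adjusted p 0.92). The values of 8 genes were lower and those of 2 were higher with OSM, and their median log2 fold change was -0.15, against -0.01 over all genes tested. At an unadjusted p under 0.05, 2 of the 10 genes, Amotl1 and Ccn1, were lower, against 2.71% of all genes (462), and 0 were higher, against 2.25% (384). DESeq2 called 168 genes of all, of which 0 were among the 10.

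Amotl1, a junctional angiomotin, had the lowest unadjusted p of the 10. In litter 1 the OSM mice had 54.8 and 49.3 CPM and the PBS mice 75.4 and 75.3 CPM. In litter 2 the OSM mice had 29.6 and 56.3 CPM and the PBS mice 47.6 and 50.5 CPM, and in litter 3 the OSM mouse had 44.7 CPM and the PBS mice 95.6 and 85.1 CPM. All OSM mice lay below all PBS mice within litters 1 and 3 but not within litter 2. Groups of 1 or 2 mice often separate by chance, and the share of all genes that separated within a litter was not counted. This holds for every gene described by litter below. The means were 46.9 ± 10.7 CPM (SD, n = 5) with OSM and 71.6 ± 19.0 CPM (n = 6) with PBS, a log2 fold change of -0.52 ± 0.19 (SE, edgeR unadjusted p = 0.0205, adjusted p = 0.955). Within litters 1, 2 and 3 the log2 difference was -0.54, -0.27 and -1.01.

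Ccn1, whose secreted protein binds integrins, showed the same order of group means. In litter 1 the OSM mice had 577 and 661 CPM and the PBS mice 797 and 792 CPM. In litter 2 the OSM mice had 176 and 258 CPM and the PBS mice 191 and 379 CPM, and in litter 3 the OSM mouse had 302 CPM and the PBS mice 606 and 349 CPM. The OSM mice were thus lower within litters 1 and 3 and overlapped with PBS mice in litter 2. The log2 fold change was -0.45 ± 0.20 (SE, edgeR unadjusted p = 0.0446, adjusted p = 0.955), with -0.36, -0.34 and -0.61 within litters 1, 2 and 3. Without litter as a term it was -0.39 (adjusted p = 1).

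Tead1 was the remaining gene with a lower mean in OSM mice of every litter. Its log2 difference was -1.32 in litter 1, where the OSM mice had 9.39 and 3.22 CPM and the PBS mice 16.7 and 11.5 CPM. It was -0.47 in litter 2 (OSM 29.9 and 13.1 CPM, PBS 28.1 and 26.8 CPM) and -0.12 in litter 3 (OSM 21.6 CPM, PBS 17.3 and 32.0 CPM). The groups overlapped in litters 2 and 3, and the difference did not pass the test, with a log2 fold change of -0.60 ± 0.36 (SE, edgeR unadjusted p = 0.125, adjusted p = 0.984). In all, 3 of the 10 genes were lower with OSM in each litter, against 12.8% of all genes, and 0 were higher in each litter, against 11.3%. For none of the 10 did every OSM mouse lie below every PBS mouse (0.223% of all genes) or above every PBS mouse (0.182%).

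**Figure D2:**
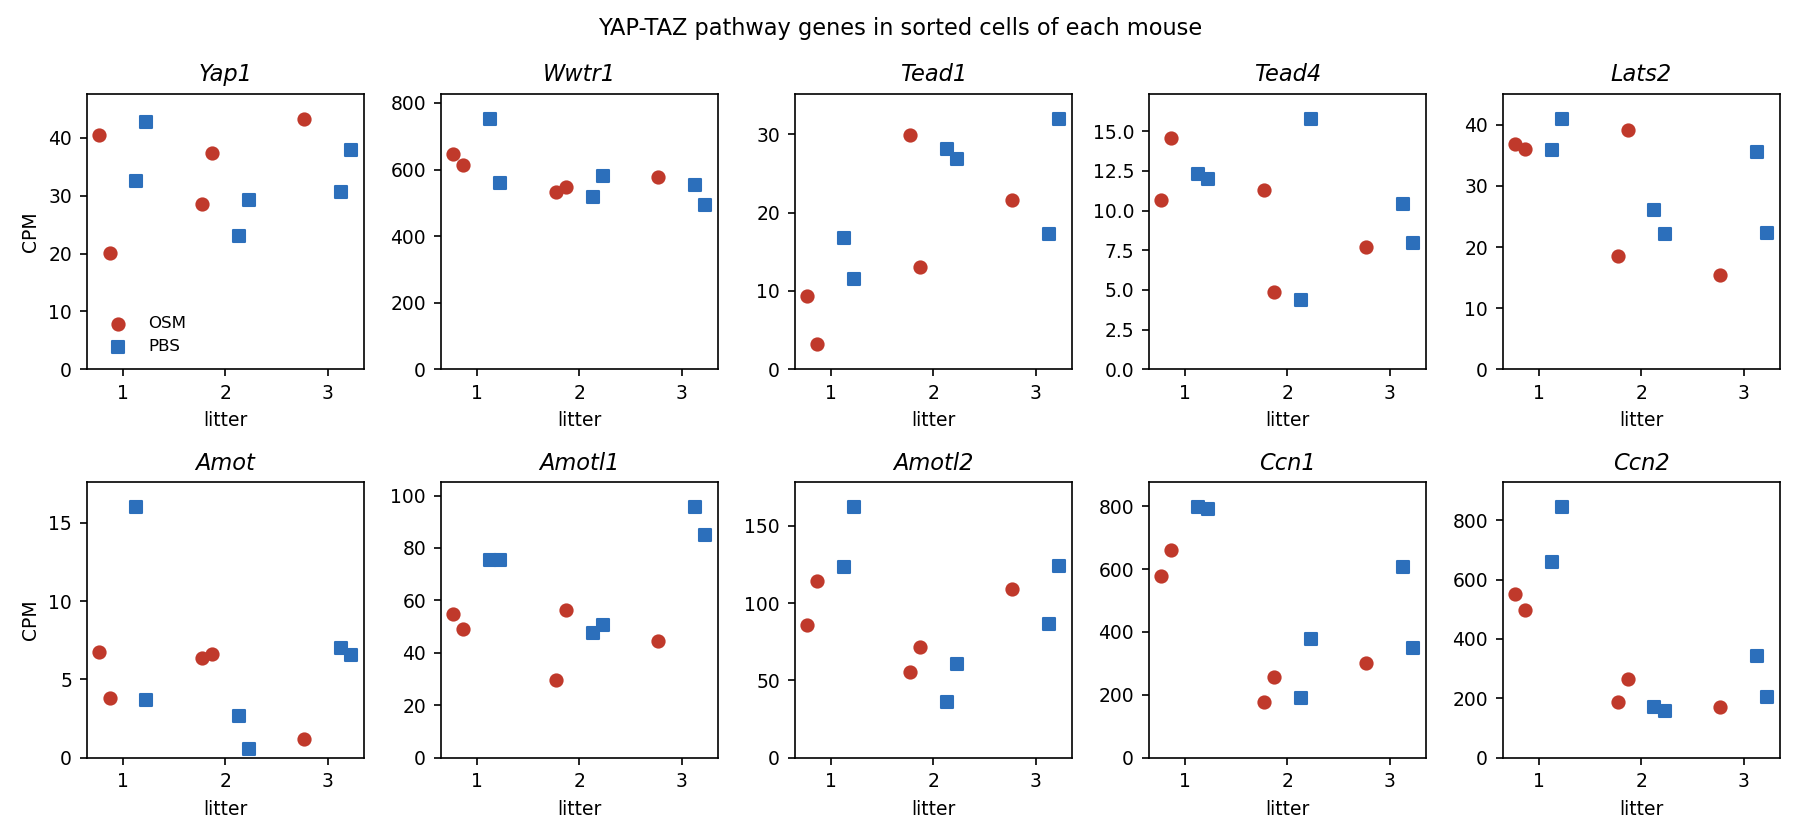
CPM of the 10 genes in each mouse, with litters along the x axis, OSM mice as red circles and PBS mice as blue squares. The groups overlap for all 10 genes. Ccn1 and Ccn2 are high in litter 1, where Tead1 is low.

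Differences between the groups in the coactivators were small. Wwtr1 had 584 ± 47.5 CPM with OSM (SD, n = 5) and 577 ± 92.0 CPM with PBS (n = 6), a log2 fold change of 0.00 ± 0.09 (SE). Yap1 had 34 ± 9.55 CPM and 32.7 ± 6.88 CPM, a log2 fold change of 0.10 ± 0.23. The standard error for Wwtr1 was the smallest of the 10 genes, so this comparison had the narrowest range of possible change. Among the others, Lats2 (-0.14 ± 0.27), Tead4 (-0.16 ± 0.41), Amotl2 (-0.03 ± 0.21) and Ccn2 (-0.19 ± 0.22) had log2 fold changes within 1 SE of 0. For Amot the log2 fold change was -0.13 ± 0.96, the least precise of the 10 genes.

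**Figure D3:**
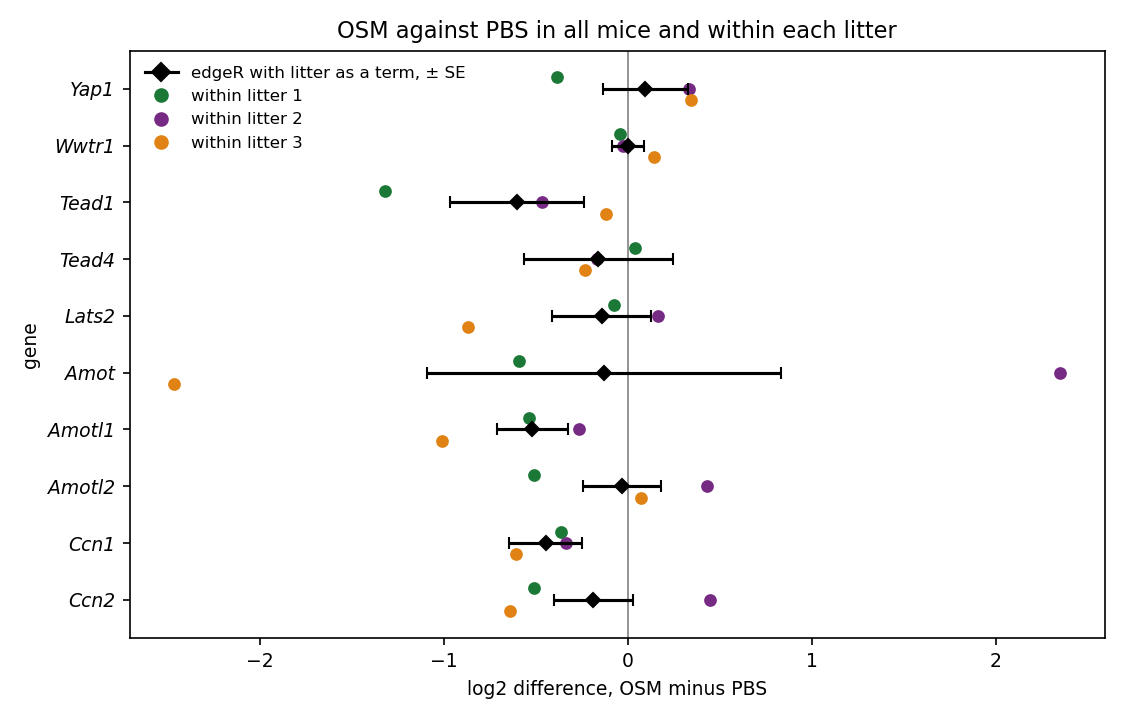
Log2 difference between OSM and PBS for the 10 genes. Black diamonds with bars give the edgeR estimate ± SE with litter as a term, and colored points give the difference of means within litters 1, 2 and 3. Amotl1, Ccn1 and Tead1 have all 3 litter points left of 0, and Amot spreads from -2.47 to 2.35.

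Among the other genes of the pathway, none passed the test either. Of the 18 Hippo kinases and upstream regulators tested (19 listed), 9 had higher and 9 had lower values in OSM mice (median log2 fold change 0.00). The lowest unadjusted p values belonged to Lats1 (-1.03 ± 0.46 SE, edgeR unadjusted p = 0.0467, adjusted p = 0.955), Map4k4 (-0.22 ± 0.11, 0.0696, adjusted p = 0.955) and Taok3 (-1.01 ± 0.58, 0.111, adjusted p = 0.984), which are all kinases of the cascade. Lats1 was at 3.85 to 12.3 CPM in the OSM mice and at 5.93 to 29.4 CPM in the PBS mice, and the groups overlapped. The most abundant of the list were Mob1a (94.9 TPM), a cofactor of LATS kinases, and Limd1 (71.5 TPM) and Wtip (67.5 TPM), which belong to the Ajuba family of LATS inhibitors. Their log2 fold changes were 0.15 ± 0.18, 0.03 ± 0.14 and -0.27 ± 0.24 (SE). Of the TEAD partners, 3 of 6 were tested: Tead2 at -0.14 ± 0.17, Vgll4 at 0.00 ± 0.10 and Tead3 at -1.12 ± 2.7. The value of Tead3 rests on 77 reads, 49 of them in OSM mouse 6, and its sign goes against the group means of 0.348 CPM with OSM and 0.165 CPM with PBS.

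Further targets of YAP and TAZ were lower more often than higher, without a call. Of 17 targets tested (18 listed), 13 were lower and 4 higher, 0 had an unadjusted p under 0.05, and the median log2 fold change was -0.35, against -0.01 for all genes. The 4 log2 fold changes farthest from 0 were those of F3, Ccdc80, Axl and Arhgef17, named after their values were seen, and their standard errors were 0.99 to 2.41. The lowest unadjusted p values belonged to Asap1 (-0.36 ± 0.19 SE, edgeR unadjusted p = 0.0796, adjusted p = 0.955), Foxf2 (0.26 ± 0.15, 0.110, adjusted p = 0.982) and Tgfb2 (-0.27 ± 0.17, 0.138, adjusted p = 0.994). Asap1 acts on Arf GTPases at focal adhesions, Foxf2 is a transcription factor and Tgfb2 a growth factor. The most abundant targets were Igfbp3 (1330 TPM, log2 fold change -0.05 ± 0.16), Foxf2 (164 TPM) and Gadd45a (55.3 TPM, -0.35 ± 0.23). Ankrd1, a common marker gene of YAP activity in cell culture, had 8 reads in 2 mice and was not tested. Of the other CCN genes, Ccn3, Ccn4 and Ccn6 had log2 fold changes of 0.15 ± 1.1, -1.03 ± 1.62 and 1.37 ± 2.41 (SE).

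Mural cells also use YAP and TAZ and express CCN genes, so their markers were measured beside these genes. With litter as a term the log2 fold change of all 10 mural markers was negative (median -0.74). Only 1 had an unadjusted p under 0.05, against 2.71% of all genes that were lower at this threshold, and 0 passed the test. The direction was not shared by the litters, since 7 of the 10 markers were higher with OSM in litter 2, against 1 in litter 1 and 1 in litter 3. Their summed level was 410 to 831 CPM with OSM and 310 to 1740 CPM with PBS, and the lowest value was that of PBS mouse 8. Of the 10 markers 9 were found in all mice, and Myh11 was found in 7. In litter 2 the log2 difference was -0.27 for Amotl1 and -0.34 for Ccn1. It was negative there for the mural markers Cspg4 (-0.79), Des (-0.26) and Notch3 (-0.15) as well. The part of mural cells in the values of Amotl1 and Ccn1 was not tested.

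The other marker lists gave no call either. Red cell and platelet markers had 4 of 5 tested genes higher (median 1.02), at 290 to 924 CPM with OSM and 110 to 483 CPM with PBS. Of these markers 3 were higher with an unadjusted p under 0.05, against 2.25% of all genes. Rod markers had 6 of 8 higher (median 0.57) at 191 to 5220 and 355 to 1430 CPM. The litters did not share this direction, with 4, 8 and 0 of the 8 higher in litters 1, 2 and 3. The value of 5220 CPM was that of OSM mouse 5, and the next OSM mouse had 1730 CPM. All 4 leukocyte markers tested were lower in the fit (median -1.71) at 0.287 to 7.31 and 0.23 to 14.1 CPM, and all 4 were higher with OSM in litter 2. Ptprc, the gene of CD45, had 31 reads in 5 mice and was not tested. The 4 fibroblast markers tested also had negative log2 fold changes (median -0.97), at 9.57 to 48.0 and 17.3 to 91.3 CPM, although the mean of Dcn was 3.60 CPM with OSM and 2.05 CPM with PBS. The median was -0.38 both for Müller glia and astrocytes (1 of 5 higher) and for the pigment epithelium (1 of 3 higher), and -0.01 for endothelial markers (5 of 10 higher). By group means in CPM, however, 3 of the 5 glial and 2 of the 3 pigment epithelium markers were higher with OSM. The glial median ran from -2.44 to 0.07 when single mice were left out. The part of these cell types in the values of Amotl1 and Ccn1 was not tested.

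**Figure D4:**
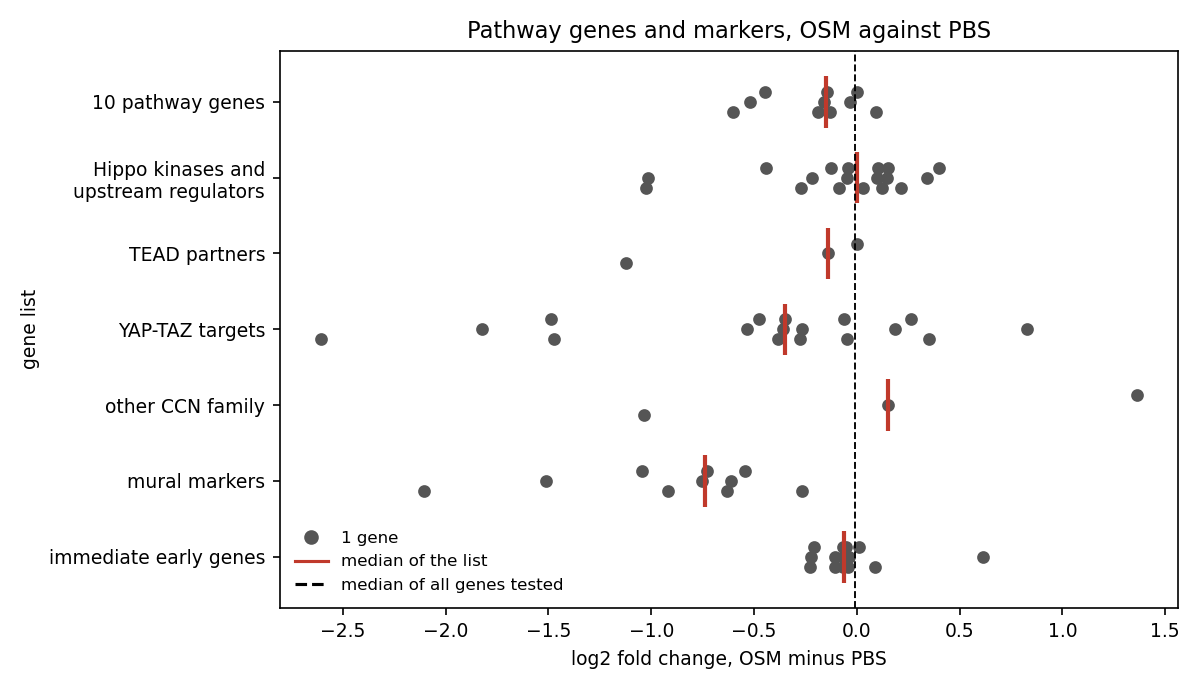
Log2 fold change (OSM minus PBS, edgeR with litter as a term) of each tested gene in the lists of pathway genes, mural markers and immediate early genes. Each point is 1 gene, red bars are list medians and the dashed line is the median of all genes tested (-0.01). The fitted values of the 10 mural markers all lie left of 0, and no gene of any list passed the test.

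The mean levels of Ccn1 and Ccn2 were highest in litter 1, and that of Tead1 was lowest there. None of the 10 genes passed the test of differences between litters after adjustment over 17050 genes, although Ccn2 (edgeR adjusted p = 0.0562) and Ccn1 (adjusted p = 0.0783) were nearest to the threshold and stood at ranks 14 and 31 of 17050 by unadjusted p. Only 3 genes of all passed it (0.0176%). These were Depp1, mt-Co1 and Klf6, each with an adjusted p of 0.0216. Without adjustment 4 of the 10 genes had a p under 0.05, against 10.3% of all genes.

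Ccn2, encoding a matrix protein that binds growth factors and integrins, had 550, 496, 659 and 844 CPM in mice 1 to 4 of litter 1. The mice of litter 2 had 157 to 265 CPM and those of litter 3 had 171 to 343 CPM. Every mouse of litter 1 was therefore above every other mouse. The means were 637 ± 153 CPM (SD, n = 4), 195 ± 48.3 CPM (n = 4) and 240 ± 91.0 CPM (n = 3), and the log2 difference to litter 1 was -1.68 ± 0.25 (SE) for litter 2 and -1.44 ± 0.27 for litter 3 (edgeR, unadjusted p of the litter term 4.6e-05).

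Ccn1 followed a similar pattern with means of 707 ± 107 CPM, 251 ± 92.4 CPM and 419 ± 163 CPM in litters 1, 2 and 3. Litter 1 (577 to 797 CPM) lay above litter 2 (176 to 379 CPM), while mouse 10 of litter 3, at 606 CPM, fell within the range of litter 1. The log2 difference to litter 1 was -1.50 ± 0.23 (SE) for litter 2 and -0.85 ± 0.25 for litter 3 (edgeR unadjusted p = 0.000149). Amotl2, an angiomotin that is itself a known YAP target, was low in litter 2 alone, with 121 ± 31.5, 56.0 ± 15.0 and 106 ± 19.0 CPM (edgeR unadjusted p = 0.00279, adjusted p = 0.181). Tead1 went the other way, with 10.2 ± 5.56 CPM in litter 1 and 24.5 ± 7.67 and 23.6 ± 7.57 CPM in litters 2 and 3 (edgeR unadjusted p = 0.0228, adjusted p = 0.387). Wwtr1, at 644 ± 81.0, 545 ± 27.0 and 542 ± 43.9 CPM, and the remaining 5 genes had adjusted p values of 0.491 to 0.941.

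Whether Ccn1 and Ccn2 counted as called between litters depended on how genes were filtered. When genes were required to have 10 or more counts in each mouse, the adjusted p was 0.0065 for Ccn2 and 0.00879 for Ccn1. DESeq2 called Ccn2, Ccn1 and Amotl2 (likelihood ratio test, adjusted p of 1.87e-08, 1.77e-06 and 0.00508), but also 995 genes in all. With edgeR, leaving out mouse 8 brought both Ccn genes to 0.0485 and leaving out mouse 6 brought Ccn2 to 0.0422, whereas leaving out mouse 2 raised them to 0.247 for Ccn2 and 0.287 for Ccn1. The order of the litter means is therefore described and the difference is left uncalled.

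Of the 17 further targets of YAP and TAZ, 3 had an unadjusted p under 0.05 between litters, against 10.3% of all genes. They were Igfbp3, Crim1 and Dock5, of which Crim1 and Dock5 were named after their values were seen. Igfbp3, a binding protein of insulin-like growth factors, had 1410 ± 261 CPM (SD, n = 4) in litter 1, 896 ± 225 CPM in litter 2 and 811 ± 124 CPM in litter 3. Crim1 had 92.3 ± 11.6, 52.8 ± 5.93 and 57.0 ± 10.6 CPM. For both, as for Ccn2, the means of litters 2 and 3 lay below that of litter 1, whereas Dock5 had 10.0 ± 6.5, 1.01 ± 0.814 and 9.93 ± 9.95 CPM and was low in litter 2. None of the 3 passed the adjusted test.

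The effect of OSM was also tested for a difference between litters. No gene passed the test of the interaction (0% called), and of the 10 genes 1 had an unadjusted p under 0.05, against 6.42% of all genes. This was Ccn2 (edgeR unadjusted p = 0.0256, adjusted p = 0.694), whose log2 difference between OSM and PBS was 0.45 in litter 2, against -0.51 and -0.64 in litters 1 and 3. In litter 2 the OSM mice had 187 and 265 CPM and the PBS mice 170 and 157 CPM, so the groups did not overlap but stood in the reverse order to the other litters.

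Immediate early genes, which cells switch on within minutes of a stimulus, were measured beside the targets. Their summed level over 14 genes was 2780 to 3400 CPM in litter 1, 1730 to 2300 CPM in litter 2 and 1980 to 2040 CPM in litter 3, so that litter 1 stood above the rest as it did for Ccn2. Of the 14 genes, 11 had an unadjusted p under 0.05 between litters, against 10.3% of all genes, and 0 passed the adjusted test. In the comparison of treatments their median log2 fold change was -0.06. The summed mural markers, at 410 to 832, 310 to 1140 and 432 to 1740 CPM in litters 1, 2 and 3, were not highest in litter 1. Endothelial markers summed to 14700 to 16700, 11900 to 15100 and 13700 to 14900 CPM. Of these 10 markers, Cdh5, Kdr, Pecam1 and Vwf (4 genes) had an unadjusted p under 0.05 between litters, and 0 passed the adjusted test. Pecam1 had the same adjusted p as Ccn1 (edgeR, 0.0783). It was at 1490 to 1820 CPM in litter 1 and at 916 to 1280 CPM in the other litters, so a high litter 1 was not particular to the CCN genes. The part of the immediate early response in the litter pattern of Ccn1 and Ccn2 was not tested.

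Ccn1 and Ccn2 were correlated over the mice, and the relation lay mostly between litters. Over all 11 mice Pearson's r of their log2 CPM was 0.86 (permutation p = 0.00154, adjusted p = 0.00597 over 5 relations) and Spearman's rho was 0.76 (permutation p = 0.00849, adjusted p = 0.0232). Without mice 5 and 3, the farthest from the median of Ccn1, r was 0.84 (permutation p = 0.00648). These permutations shuffled mice across litters, and litter 1 lay apart from the other litters in Ccn2. Their p-values therefore take mice of a litter as independent and do not separate a relation between genes from a difference between litters. After centering within litters r was 0.49 (permutation p = 0.121). Over the 7 mice of litters 2 and 3 r was 0.55 (exact permutation p = 0.225) and rho was 0.21 (exact permutation p = 0.662). The relation was thus not shown within litters. For the summed immediate early genes and Ccn1 no relation was shown within litters either. Since litter 1 formed a cluster of its own in that measure, no r over all mice is given, and r is given within litters 2 and 3 (0.45, exact permutation p = 0.326, n = 7) and after centering (0.47, permutation p = 0.142).

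**Figure D5:**
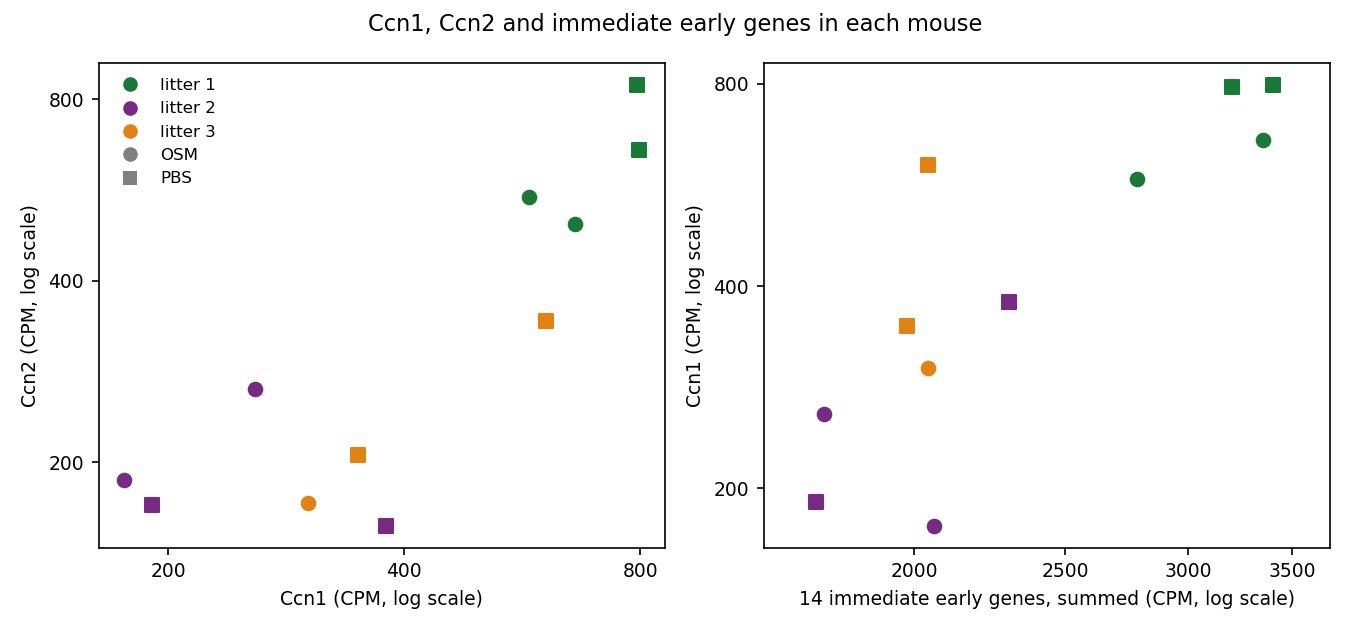
Left, Ccn2 against Ccn1 in each mouse. Right, Ccn1 against the summed level of 14 immediate early genes. All axes are CPM on a log scale, colors mark litters, circles are OSM and squares are PBS mice. The 4 mice of litter 1 lie at the upper right of both plots, with the summed immediate early genes at 2780 CPM or more.

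Over all 11 mice the remaining relations were weaker than that of Ccn1 and Ccn2, but within litters they were not all weaker. For Yap1 and Wwtr1 no relation was detected (r = 0.02, permutation p = 0.963, rho = 0.11, p = 0.754, without mice 2 and 7 r = -0.03). Amotl1 and Amotl2 had r = 0.55 (permutation p = 0.077, adjusted p = 0.128, rho = 0.57, p = 0.0711), which was 0.60 without mice 5 and 10 and 0.18 after centering within litters. The summed mural markers and Ccn2 had r = 0.01 over all mice (permutation p = 0.973, rho = 0.13, p = 0.710, r = -0.07 without mice 8 and 11), against 0.51 after centering within litters (permutation p = 0.111, adjusted p = 0.236). No relation passed the test after centering.

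The genes whose pattern within litters was most like those of Ccn1 and Ccn2 were sought among 4150 genes with a mean of at least 50 CPM, by Pearson's r of litter-centered log2 CPM over the 11 mice. For Ccn1 these were Esyt1 (0.93), Hspa12b (0.92), Adamtsl2 (0.90), Fndc3b (0.87) and Icmt (0.87), against a median r of 0.03. For Ccn2 they were Snx9 (0.99), Hnrnpd (0.97), Zfand5 (0.91), Cdc16 (0.91) and Cyrib (0.91), against a median of -0.05. No gene was in both lists. With 11 mice and so many genes, values of this size are picked as the highest of many, and they are given as a description.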

How the data were processed

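Sorted cells of 11 mice were analysed, 5 injected with OSM and 6 with PBS. Per the labels and methods, poly(A)-primed cDNA was PCR-amplified and sequenced as single reads, STAR aligned the reads to GRCm39, and featureCounts assigned them to genes. The authors deposited raw counts per gene, without normalization and without molecular identifiers, so copies of 1 molecule count as separate reads. Mouse and treatment follow the sample labels. The count columns of mice 10 and 11 are headed with the numbers 11 and 12, and each file was assigned to its sample by the record of the series, so these mouse numbers rest on that record. Of 55359 genes, 54749 were in GENCODE vM39, which gave symbols, positions and lengths. No 2 libraries were copies of each other (lowest chi-square per gene 67.6).

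Counts were analysed with edgeR 4.0.16 (R 4.3.3): filterByExpr with a count minimum of 10 and the group size from the model (chosen after a filter on treatment group size had been seen), TMM, a robust quasi-likelihood fit with litter and treatment, and p-values adjusted after Benjamini-Hochberg over 17050 genes, called under 0.05. Standard errors derive from the F statistic. Treatments, litters and their interaction were tested. TPM used the length of all exons. Correlations used log2 CPM with a prior count of 2 and 100000 permutations. DESeq2 1.42.0 and the other alternatives (normalization, filters, thinning, leaving out mice or litters) are given in the closing section. Marker and pathway lists, and the genes themselves, were chosen with earlier results of these data known. Named were the 10 genes, from each pathway list the 3 genes with the lowest unadjusted p and the 3 with the highest mean TPM, and the 5 genes most like Ccn1 and Ccn2. Mice were numbered 1 to 11 without numbers shared between treatments. The protein sequences were not used here, and the promoter of Ccn2 is not reported here.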

Additional observations from a re-analysis of the deposited data

Results flagged for a closer look

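The difference between OSM and PBS was positive in litter 2 and negative in litter 3 for Ccn2 and Amot, and negative in litter 1 for Ccn2, with no overlap of the groups within these litters. Groups of 1 or 2 mice often separate by chance. The share of all genes that separated in this way was not counted, so the separation is only described. For Ccn2 the log2 difference was -0.51 in litter 1, where the OSM mice had 550 and 496 CPM and the PBS mice 659 and 844 CPM. It was 0.45 in litter 2 (OSM 187 and 265 CPM, PBS 170 and 157 CPM) and -0.64 in litter 3 (OSM 171 CPM, PBS 343 and 206 CPM). The interaction of litter and treatment had an unadjusted p of 0.0256 in edgeR and an adjusted p of 0.694, so the difference between litters did not pass the test.

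For Amot the log2 difference was 2.35 in litter 2 (OSM 6.39 and 6.60 CPM, PBS 2.67 and 0.545 CPM) and -2.47 in litter 3 (OSM 1.18 CPM, PBS 7.01 and 6.58 CPM). In litter 1 the groups overlapped (OSM 6.78 and 3.83 CPM, PBS 16.0 and 3.69 CPM, log2 difference -0.59). Its interaction did not pass either (edgeR unadjusted p = 0.0707, adjusted p = 0.777), and it had as few as 19 reads in a mouse. No mouse stood apart within its treatment group in any of 20 tests of extreme values, of which about 1 in 20 is flagged by chance.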

How the results depend on the processing

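For OSM against PBS, 0 of the 10 genes were called in any alternative, and the lowest adjusted p was 0.0645 (Ccn1 without a filter on low counts). Of all genes, 65 were called without that filter and 168 by DESeq2, against 0 in the main comparison and 0 in the other alternatives. Of 210 log2 fold changes of the 10 genes under alternatives, 184 kept their direction and 26 reversed, none of them past the threshold. Amotl1 (-0.73 to -0.37), Ccn1 (-0.57 to -0.29) and Tead1 (-0.84 to -0.37) stayed negative whichever mouse was left out.

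Leaving out litter 1 reversed Amot (0.70), Amotl2 (0.26) and Ccn2 (0.03), leaving out litter 2 reversed Yap1 (-0.05), and leaving out litter 3 reversed Amot (0.55), Lats2 (0.09) and Wwtr1 (-0.05). With DESeq2's size factors, 10 counts in every mouse, thinned libraries, DESeq2 or the filter on treatment group size, Wwtr1 changed sign at a size of 0.00. When single mice were left out, the range was -0.79 to 0.63 for Amot, -0.19 to 0.10 for Amotl2, -0.39 to 0.09 for Lats2, -0.34 to 0.20 for Tead4 and -0.05 to 0.08 for Wwtr1. The median of the 10 genes was -0.44 without litter 2 and -0.32 to -0.06 without single mice. The median of the Hippo list was -0.11 without litter 2, that of the other CCN genes -1.54 without litter 1, and that of the TEAD partners 0.01 without the litter term. Without single mice the medians were -0.23 to 0.04 for the TEAD partners and -0.35 to -0.16 for the targets.

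Calls between litters depended strongly on the setting. In the main comparison 3 of 17050 genes and 0 of the 10 were called. With the filter on treatment group size these were 14 of 13742 and 1 of the 10. With at least 10 counts per mouse they were 109 of 10350 and 2. Both settings were added after the data were seen. Without a filter 625 of 28940 genes and 3 of the 10 were called, by DESeq2 995 of 28940 and 3, and in thinned libraries 15 of 16625 and 1. Without single mice these were 0 to 44 genes (44 without mouse 8) and 0 to 2 of the 10. For the interaction, 305 of 28940 genes and 1 of the 10 were called without a filter, 673 of 28940 genes by DESeq2, and 0 to 1 genes without single mice. Litter-centered correlations, 0.49 for Ccn1 with Ccn2 and 0.47 for immediate early genes with Ccn1, did not pass the test, and litters 2 and 3 alone, added after the data were seen, gave 0.55 and 0.45. Without the extreme mice r was -0.03 for Yap1 with Wwtr1 and -0.07 for mural markers with Ccn2. The cause was not tested in any of these cases.

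No paired analysis was possible because mouse numbers are not shared between treatments. Litter served as the block, and without this replicate block 0 genes were called and the log2 fold change of Amotl1 was -0.61. Depth limits Amot, with 19 to 422 reads per mouse, most.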
